A study of Mus musculus with 10 samples.

Results

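The comparison set irradiated distal colorectum of mice without Pdgfc against irradiated distal colorectum of mice with intact Pdgfc, both taken 8 weeks after 25 Gy of local γ-irradiation. It rests on 6 of the series' 10 microarrays: 3 labelled Pdgfc-/- (knockout) with irradiation and 3 labelled Pdgfc+/+ (wild type) with irradiation. The groups were taken from the titles alone. The other 4 arrays, 2 of each genotype without irradiation, entered the choice of probe sets and of genes to test and the estimate of the spread. They also gave the values set beside the irradiated ones and the test of a difference between conditions. All mice were C57BL/6J, all tissue came from about 1 cm above the anus, and the dose was given at 2.14 Gy/min under chloral hydrate. The labels give no age and no sex, name no promoter or Cre for the deletion, and call the replicates biological. They do not say whether mice were littermates.

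Pdgfc encodes PDGF-C, a growth factor secreted in a latent form and released by proteases such as tissue plasminogen activator. The active dimer binds PDGF receptor alpha, which marks fibroblasts and other mesenchymal cells of the gut wall and drives their growth and migration. In the colorectum, late radiation injury is known for loss of epithelium, chronic inflammation and scarring of the wall.

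The question was therefore which transcripts of the irradiated wall differ when PDGF-C is missing. Of 18193 genes represented by their brightest probe set, 12568 had a signal over the median of its array in 2 or more samples and were tested, and 0 passed an adjusted p of 0.05 (limma, Benjamini-Hochberg; 0% of genes in either direction). At an unadjusted p under 0.05 there were 500 genes (3.98%), 269 higher in knockout (2.14%) and 231 lower (1.84%). The smallest adjusted p was 0.216. All signals and differences here are log2 values of MAS5 array signals, and differences are knockout minus wild type. The median standard error of a difference was 0.21, so the 95% interval reached a median of 0.47 to either side. For 11243 of the genes it reached less than 1, a 2-fold difference. Every gene named below outside the 24 with the smallest p had an adjusted p of 1. Differences named as higher or lower are thus measured values that did not pass the test across all genes, and an adjusted p over the threshold does not show that the genotypes were alike.

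Array medians ran from 6.93 to 7.18 on the 6 irradiated arrays, which differed in several ways that the labels do not give. Pairs of arrays correlated at r = 0.88 to 0.96 within a genotype and at 0.86 to 0.96 between genotypes across the genes tested, which are not independent replicates. Replicate 3 of wild type gave the lowest values, 0.88 and 0.91 with its own group and 0.86 to 0.89 with knockout. Xist, transcribed from the inactive X chromosome of females, lay at 13.81, 14.18 and 14.15 in wild type and at 13.48, 6.56 and 7.05 in knockout, and the mean of the Y-linked transcripts ran the opposite way. All 3 wild-type arrays and replicate 1 of knockout thus had a female pattern, and replicates 2 and 3 of knockout a male one. A fit with this pattern as a covariate reduces the genotype difference to replicate 1 of knockout against the wild-type mean. The Gapdh 3′ to 5′ difference, a measure of RNA integrity, was -0.54 to -0.41 in wild type and -0.47 to -0.35 in knockout. The part of sex pattern in the results was not tested beyond these values.

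Pdgfc itself was lower on every knockout array. The brighter probe set read 7.15, 6.26 and 7.10 in knockout and 8.56, 8.75 and 8.67 in wild type. The groups did not overlap, and the highest knockout array lay more than 1 log2 unit under the lowest wild-type array. The difference was -1.82 ± 0.32 (SE, n = 3 and 3; 95% interval -2.55 to -1.10), a 3.54-fold lower signal, with an adjusted limma p of 0.688. The other probe set read 6.58, 6.18 and 6.46 against 9.06, 8.59 and 8.71, a difference of -2.38 ± 0.26 (limma over all probe sets, adjusted p = 0.0721). Without irradiation the brighter probe set differed by -1.23 ± 0.40. The labels do not place these probe sets relative to the deleted part, so the signal left in knockout says nothing about the deletion.

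**Figure D1:**
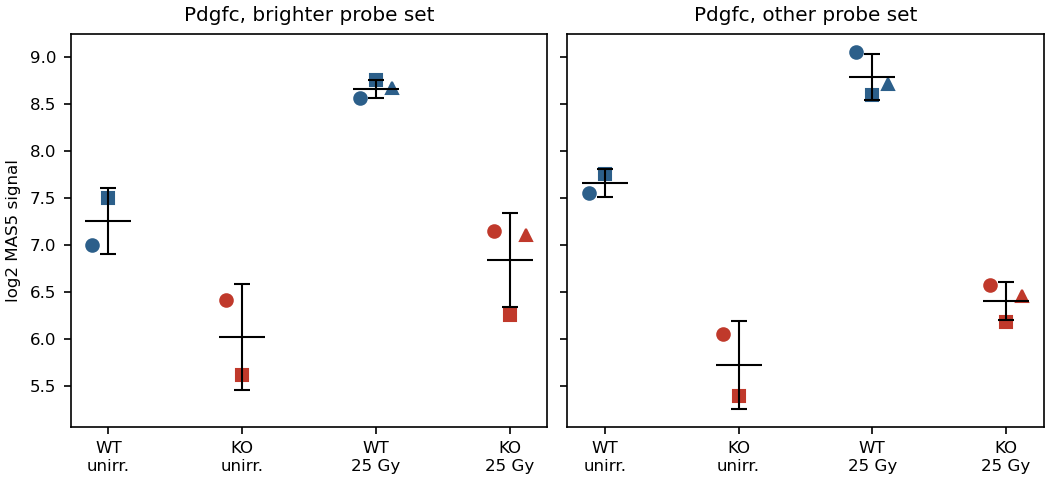
Log2 MAS5 signal of the brighter (left) and the other (right) Pdgfc probe set in unirradiated and irradiated (25 Gy) wild type (WT, blue) and knockout (KO, red). Circle, square and triangle are replicates 1, 2 and 3, the long dash is the group mean and bars are 1 SD; after irradiation the wild-type arrays lie at 8.56 to 9.06 and the knockout arrays at 6.18 to 7.15.

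Among the other PDGF ligands and receptors, no member other than Pdgfc had an unadjusted p under 0.05 (6 of 7 tested, median -0.13, against 0.00 over all genes). Pdgfd, the ligand closest in structure to PDGF-C, read 9.08, 7.87 and 7.72 in knockout and 7.82, 7.31 and 7.45 in wild type. Replicate 1 of knockout was highest and the groups overlapped (0.70 ± 0.36 SE). Pdgfra, the receptor of PDGF-C, read 11.33, 10.31 and 10.88 against 11.09, 10.90 and 10.92. Its difference was -0.13 ± 0.26 (95% interval -0.71 to 0.44), and it turned to 0.13 without replicate 2 of knockout; of its 2 other probe sets one had -0.37 ± 0.42 and one 0.27 ± 0.36. Pdgfrb differed by -0.13 ± 0.23 (0.14 without that array), Pdgfb by -0.35 ± 0.24 and Pdgfa by 0.07 ± 0.16 (-0.09 without replicate 2 of wild type). The signs of Pdgfra, Pdgfrb and Pdgfa also turned with the sex pattern as a covariate. Of the protease and co-receptor genes around PDGF-C, 0 of 5 tested had an unadjusted limma p under 0.05; the co-receptor Nrp1 had -0.37 ± 0.25 and the urokinase receptor Plaur -0.58 ± 0.42. Of the CXCL12 axis, Cxcl12, a chemokine of stromal cells, read 12.10, 11.64 and 11.79 against 12.38, 12.22 and 12.13, without overlap (-0.40 ± 0.14). The second Cxcl12 probe set had -0.13 ± 0.21, with overlapping groups. The CXCL12 receptor genes Cxcr4 and Ackr3 made the list range from -0.85 to 0.04, with 0 of 2 under that p.

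The 3 smallest p-values belonged to H2-M3, Saa3 and Ubd, all lower in knockout, followed by Pdgfc itself and by Cyp2c55, which was higher. H2-M3 encodes a nonclassical MHC class I molecule that presents formylated bacterial peptides. It read 9.46, 9.44 and 9.55 in knockout and 10.48, 10.65 and 10.45 in wild type. Each group was tight, with SDs of 0.06 in knockout and 0.11 in wild type, and the gap between groups was larger (-1.05 ± 0.14 SE, 95% interval -1.36 to -0.73, limma, adjusted p = 0.216). Saa3, an acute-phase apolipoprotein made locally by stromal cells and macrophages, read 8.93, 8.79 and 8.72 against 11.80, 10.37 and 10.81. Knockout arrays were nearly level and wild type was spread (-2.18 ± 0.30, a 4.53-fold lower signal, limma, adjusted p = 0.216). Without replicate 1 of wild type, Saa3 had a difference of -1.77 and an adjusted limma p of 0.0446. Of the 22 other settings tried, that was the only setting in which Saa3 passed the threshold. Ubd encodes the ubiquitin-like modifier FAT10, induced by interferon gamma and TNF. Its values were 9.92, 9.79 and 10.09 against 12.37, 12.58 and 11.22. Replicate 3 of wild type was the lowest of its group and still above knockout (-2.12 ± 0.35, 4.36-fold, limma, adjusted p = 0.554). Without that array Ubd had -2.54 and an adjusted limma p of 0.0225. Ubd likewise passed in no other of the 22 settings.

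The promoters of these genes are shown because their products are known as targets of interferon or inflammatory signalling. The windows are the 250 bases before the annotated start, on the gene's strand, from RefSeq (GRCm38.p6). Capitals mark matches on either strand to the core of the interferon-stimulated response element (GAAA, any 2 bases, GAAA) or the gamma-activated site TTCNNNGAA. Mndal, a member of the interferon-inducible HIN-200 family of DNA sensors, is shown with them and is described next.
H2-M3, chr17:37269984-37270233, plus strand: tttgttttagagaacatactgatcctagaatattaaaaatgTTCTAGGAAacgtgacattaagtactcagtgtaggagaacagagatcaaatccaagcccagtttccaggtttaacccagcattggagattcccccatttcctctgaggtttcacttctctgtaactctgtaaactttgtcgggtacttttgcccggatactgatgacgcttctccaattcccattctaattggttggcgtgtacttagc
Saa3, chr7:46715677-46715926, minus strand: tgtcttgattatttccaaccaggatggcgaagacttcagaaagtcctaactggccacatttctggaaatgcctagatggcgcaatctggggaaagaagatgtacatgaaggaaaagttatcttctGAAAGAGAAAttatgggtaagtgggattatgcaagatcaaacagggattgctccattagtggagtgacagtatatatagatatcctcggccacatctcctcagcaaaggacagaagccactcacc
Mndal, chr1:173880188-173880437, minus strand: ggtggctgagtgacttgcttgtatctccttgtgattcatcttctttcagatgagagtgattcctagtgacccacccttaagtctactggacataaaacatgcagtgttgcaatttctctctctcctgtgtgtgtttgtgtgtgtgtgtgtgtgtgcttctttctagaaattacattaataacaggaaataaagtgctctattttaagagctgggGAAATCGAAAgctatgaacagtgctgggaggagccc
Ubd, chr17:37193642-37193891, plus strand: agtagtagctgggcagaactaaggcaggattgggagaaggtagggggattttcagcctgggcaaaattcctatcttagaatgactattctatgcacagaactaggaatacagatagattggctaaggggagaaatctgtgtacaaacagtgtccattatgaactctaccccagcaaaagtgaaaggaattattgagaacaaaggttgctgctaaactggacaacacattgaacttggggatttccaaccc
The response element match begins 125 bases before the start in Saa3 and 36 before it in Mndal, and the TTCNNNGAA match 209 before it in H2-M3. Over 27025 promoters of the same length, 3.04% held the response element core and 7.18% TTCNNNGAA. Of the 12 genes with the smallest p among those lower in knockout, 10 had a promoter in the table, and 2 held the first motif and 1 the second. Of the 12 higher in knockout, 8 had a promoter and 0 held either. A match describes the letters only, and the Ubd window without a match says nothing about any factor.

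The remaining genes of the 12 lowest p-values in this direction were all without overlap between groups, which the choice of genes required. Mndal read 10.54, 9.84 and 10.50 against 11.15, 11.35 and 11.47 (-1.03 ± 0.19, limma, adjusted p = 0.699). Cd177, known as a neutrophil surface protein, differed by -1.11 ± 0.22 and Ly6e, an interferon-induced membrane protein, by -0.48 ± 0.11. The mean Cd177 signal of wild type was 12.54 without and 11.31 after irradiation. The neutrophil marker S100a9 instead went from 3.40 to 12.78. Which cells gave the Cd177 signal was not tested. Cytokine receptors were also among the 12: Il1r1 for interleukin 1 (-1.02 ± 0.25), Crlf2 for TSLP (-1.12 ± 0.27) and Osmr for oncostatin M (-0.68 ± 0.17). For Osmr the arrays read 10.35, 9.98 and 10.29 in knockout and 11.03, 10.62 and 11.01 in wild type. Slc27a2, a fatty acid transporter and acyl-CoA synthetase, had -1.11 ± 0.27 and the sialyltransferase gene St6galnac2 -0.76 ± 0.18. For St6galnac2 and Il1r1 the average with a second, dimmer probe set gave 0.04 and 0.09 instead. Of the 24 genes of both directions, 5 had other probe sets that passed the same filter; all 7 of these differed in the same direction, 4 without overlap.

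**Figure D2:**
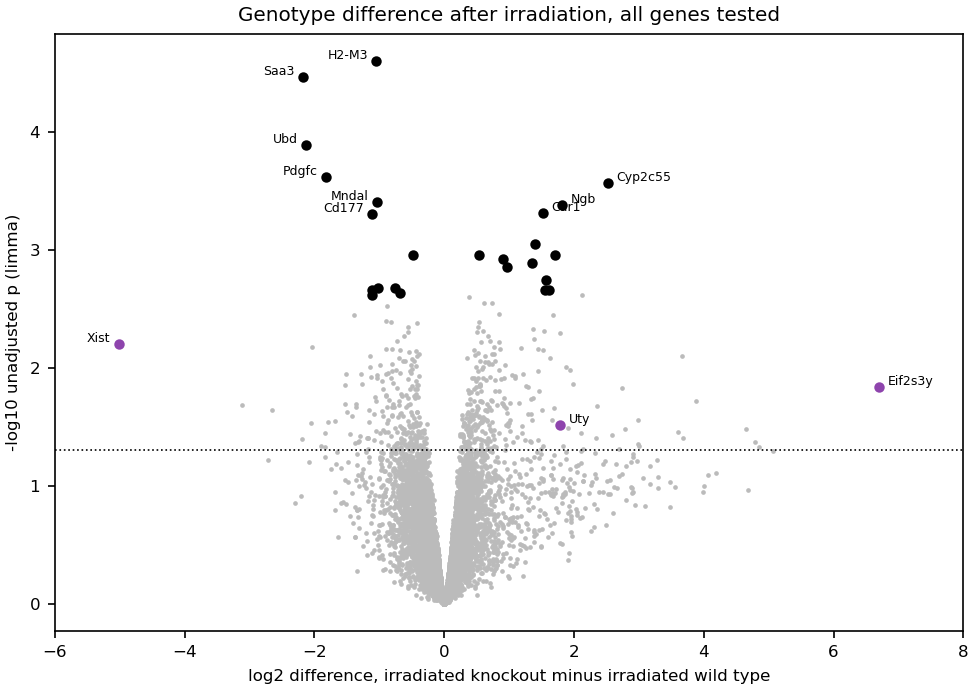
Difference between irradiated knockout and irradiated wild type (x axis, log2) against -log10 of the unadjusted limma p (y axis) for the 12568 genes tested. Black points are the 24 genes with the smallest p in each direction whose groups did not overlap, with the 9 smallest labelled, purple points are Xist and Y-linked transcripts, and the dotted line is an unadjusted p of 0.05; 0 genes passed the adjusted threshold.

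Genes with the smallest p among those higher in knockout included xenobiotic enzymes, colonocyte and muscle transcripts. Cyp2c55, a cytochrome P450 of the colon epithelium, read 10.44, 9.70 and 8.84 in knockout and 6.65, 8.13 and 6.61 in wild type. Every knockout array lay above every wild-type one, and replicate 2 of wild type came closest (2.53 ± 0.46 SE, 5.77-fold, limma, adjusted p = 0.688). Car1, carbonic anhydrase 1 of absorptive colonocytes, read 13.11, 13.19 and 13.12 against 12.41, 11.27 and 11.17 (1.52 ± 0.30, 2.87-fold). Its knockout arrays were level and its wild-type arrays were not. Without replicate 1 of wild type, Car1 had 1.92 and an adjusted limma p of 0.033. Of the 22 other settings tried, Car1 passed in that setting only. The esterase gene Ces1f (1.39 ± 0.30), the monooxygenase gene Fmo2 (0.91 ± 0.20) and the aldo-keto reductase gene Akr1c12 (0.53 ± 0.12) were higher as well. Akr1c12 read 11.18, 11.30 and 11.34 against 10.78, 10.67 and 10.76, groups far apart relative to their spread. Mndal, Cyp2c55, Ces1f and Akr1c12 belong to families with close copies, and whether their probe sets tell the copies apart was not tested.

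Pla2g2a, a gene of the secreted phospholipase family, read 9.01, 9.45 and 8.81 against 7.995, 8.14 and 8.26 (0.96 ± 0.22, limma, adjusted p = 1). Whether these C57BL/6J mice make a working enzyme from this transcript was not tested. Ngb, neuroglobin, an oxygen-binding protein of neurons, read 9.62, 8.33 and 9.27 against 7.50, 7.53 and 6.71 (1.82 ± 0.35). The other 5 were Actc1, cardiac actin (1.71 ± 0.37), Mss51 of muscle mitochondria (1.62 ± 0.39), Eno3, the muscle enolase (1.57 ± 0.37), Car14, a membrane carbonic anhydrase (1.55 ± 0.38) and the calcium channel subunit Cacnb2 (1.35 ± 0.30). Eno3 read 12.81, 12.50 and 12.98 in knockout and 12.03, 11.29 and 10.26 in wild type. Its lowest value was in replicate 3 of wild type, the irradiated array with the least striated muscle signal. The part of muscle content in these differences was not tested. Of the 24 genes, 17 were above the array median on all 6 irradiated arrays, and the fold of the others, such as Car14 and Cacnb2, rests on dim signals.

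**Figure D3:**
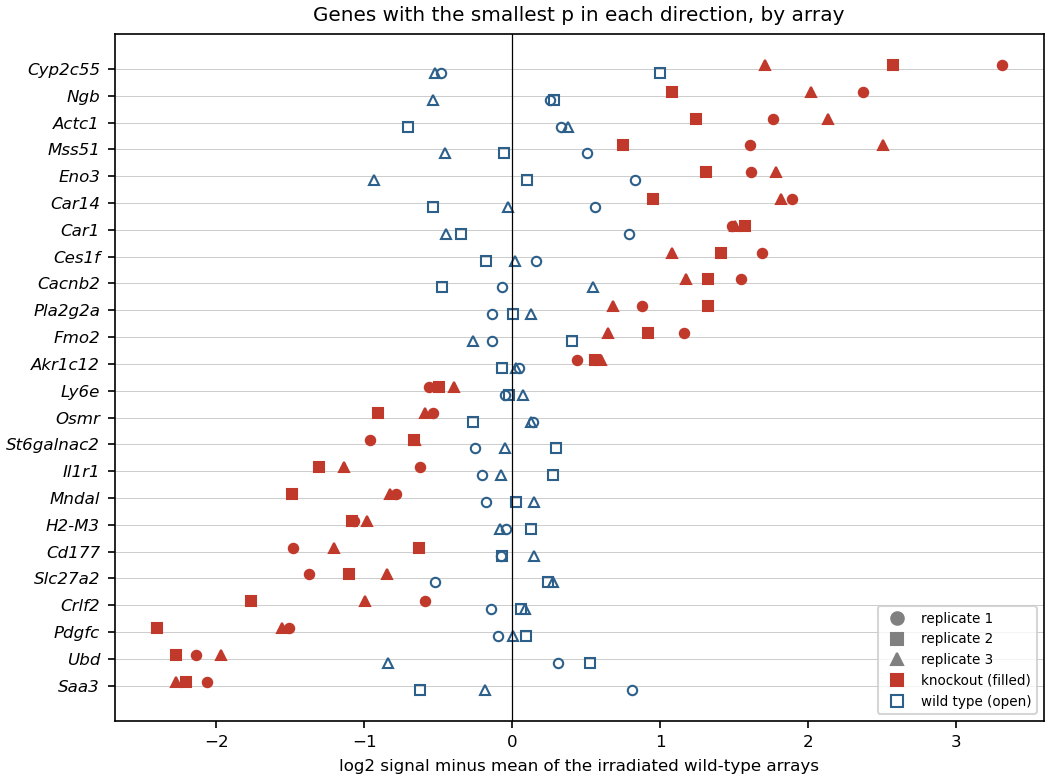
Log2 signal of the 24 genes with the smallest p in each direction on each irradiated array, minus the mean of the 3 wild-type arrays (x axis). Filled red is knockout, open blue is wild type, and circle, square and triangle are replicates 1, 2 and 3; the genes were chosen for groups that do not overlap, and the mean differences run from -2.18 (Saa3) to 2.53 (Cyp2c55).

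The unirradiated arrays give a set of values for the same genes that shares no array with the irradiated comparison, although the same fit estimates both. Over all genes tested, 52.9% had genotype differences of the same sign in both conditions. Of the 500 genes at an unadjusted p under 0.05 after irradiation the share was 65.0%, with 73.2% of those higher and 55.4% of those lower. Of the 24 genes with the smallest p, 20 had the same sign, 10 of 12 in each direction. Of these 20, 12 had an unadjusted limma p under 0.05 without irradiation too. Over all genes tested, 1217 of the 6645 with the same sign did. Counting either sign, 16.6% of all genes had such a p there, and 154, or 1.23%, passed the adjusted threshold. Both conditions share the estimate of the spread, and a small spread favours a small p in both. The count of 12 is thus no independent support. Cyp2c55 differed by 4.22 ± 0.56 without irradiation, Ubd by -4.09 ± 0.43, Saa3 by -1.53 ± 0.37 and Ly6e by -1.08 ± 0.13. Pla2g2a, Il1r1, St6galnac2 and Eno3 had the opposite sign, of which Eno3 was at -0.02. The difference between conditions itself passed an adjusted p of 0.05 for 26 of 12568 genes (0.207%; limma interaction), and 10.4% had an unadjusted p under 0.05. Of these 24 genes it passed for Pla2g2a only, whose unirradiated difference was -2.66 ± 0.27 (interaction 3.62, adjusted p = 0.0041). The count of 26 was 4 with the sex pattern as a covariate, and Pla2g2a was not among the 4. Its interaction was then 3.54 ± 0.42 (SE, against 0.34 without the covariate), with an adjusted limma p of 0.0501. The count was 14 without either unirradiated knockout array, and 15 to 16 without replicate 3 or 1 of irradiated knockout.

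Genes of the connective tissue matrix were mostly lower in knockout by small amounts. Of 90 matrix and TGF-beta pathway genes tested, 73 were below 0 and 17 above, with a median of -0.22; over all genes tested 49.3% were below 0. At an unadjusted p under 0.05 there were 10 lower (against 1.84% of all genes) and 0 higher, and groups did not overlap for 16 lower (against 4.04%) and 0 higher (against 4.38%). No set test was made, and since genes of a tissue move together these counts do not show a change of the group. In these bulk samples fewer cells of a type and less RNA per cell cannot be told apart. Leaving out 1 irradiated array at a time, 63 to 75 were below 0 and 4 to 17 were lower at that p, with 4 lower and 3 higher without replicate 2 of knockout (median -0.14), 5 lower without replicate 3 of wild type and 17 without replicate 3 of knockout. With the sex pattern as a covariate 60 were below 0 and 3 were lower.

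The fibrillar collagens and their processing enzymes had a median of -0.22 (16 of 17 below 0, 1 lower at an unadjusted limma p under 0.05). That gene was Col5a2, a collagen V chain that regulates fibril width, at 11.38, 11.26 and 11.65 against 11.97, 11.83 and 12.05 (-0.52 ± 0.17). Its second probe set had 0.08 ± 0.28, with overlapping groups. Other collagens had -0.33 (10 of 11 below 0, 2 lower; 0 without replicate 2 of knockout or replicate 1 or 3 of wild type), with the basement membrane chain Col4a2 at -0.36 ± 0.15 and the collagen VI chain Col6a3 at -0.33 ± 0.15, both with overlapping groups. Proteoglycans and adhesive glycoproteins had -0.30 (11 of 17 below 0, 2 lower). Tnc, tenascin C of wounds and scars, read 10.26, 10.004 and 9.98 against 11.08, 10.48 and 11.32 (-0.88 ± 0.22). Bgn, biglycan, a collagen-binding proteoglycan, read 11.92, 11.77 and 12.10 against 12.37, 12.32 and 12.77 (-0.56 ± 0.15). For both, all 3 knockout arrays lay below all wild-type arrays. The median of this list was -0.06 without replicate 3 of wild type and -0.09 without replicate 2 of knockout.

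Elastic fibre genes had a median of -0.31 (8 of 9 below 0, 2 lower), with the fibulins Fbln2 at -0.62 ± 0.17 and Fbln1 at -0.66 ± 0.26. The median was -0.05 without replicate 2 of knockout, and of 2 other Fbln1 probe sets one had -0.44 ± 0.15 and one 0.47 ± 0.36. Matrix metalloproteinases and their inhibitors had -0.57 (12 of 14 below 0, 2 lower). Without replicate 2 of knockout that median was -0.28 with 0 lower and 1 higher, without replicate 3 of wild type 0 were lower, without replicate 3 of knockout 5 were, and with the sex covariate it was -0.14. Timp1, an inhibitor of these proteases, read 8.41, 8.26 and 8.43 against 9.95, 9.32 and 10.08, without overlap (-1.42 ± 0.54). Its unirradiated arrays, which enter the shared spread, had SDs of 1.22 and 1.42. Mmp9, the gelatinase of neutrophils and macrophages, had -0.99 ± 0.41. The TGF-beta pathway had -0.16 (16 of 22 below 0, 1 lower; median -0.08 without replicate 2 of knockout), namely the latent TGF-beta binding protein Ltbp2 at 7.89, 6.39 and 6.82 against 7.11, 8.96 and 8.97. Its groups overlapped, since replicate 1 of wild type lay inside the knockout range.

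The cells that make this matrix did not follow one direction. Fibroblast markers had a median of -0.13 (15 of 19 below 0, 1 lower, Fbln1; -0.37 without replicate 1 of knockout, -0.04 without its replicate 3), and their mean was 10.04, 9.47 and 9.49 in knockout against 9.91, 9.65 and 9.96 in wild type. Replicate 1 of knockout was the highest of all 6 arrays, with 16 of 19 markers above the wild-type mean, while replicates 2 and 3 were the lowest. Smooth muscle and myofibroblast markers had a median of 0.32, with 15 of 15 above 0. The list mean was 12.23, 11.81 and 11.87 in knockout and 11.62, 11.61 and 11.69 in wild type, so the groups did not overlap. At an unadjusted p under 0.05, 4 were higher (against 2.14% of all genes) and 0 lower. Mylk, the kinase that starts smooth muscle contraction, read 13.90, 13.51 and 13.45 against 13.16, 13.19 and 13.04 (0.49 ± 0.17). Myh11, smooth muscle myosin, differed by 0.52 ± 0.19, Smtn by 0.56 ± 0.20 and Tpm2 by 0.28 ± 0.11. For Myh11 the wild-type arrays were nearly level (SD 0.03), at 12.91, 12.87 and 12.93, and knockout at 13.85, 13.20 and 13.22. Without replicate 1 of knockout 0 of the 15 were under that p and the median was 0.18; without replicate 2 of knockout 7 were, and without replicate 2 of wild type 1 was. With the sex pattern as a covariate 11 were and the median was 0.58. Blood vessel endothelium had -0.15 (14 of 17 below 0, 1 higher, the VEGF receptor Flt1 at 0.55 ± 0.22, whose other probe sets had -0.18 ± 0.22 and 0.36 ± 0.32) and lymphatic endothelium -0.23 (4 of 5 below 0, 1 lower, podoplanin, Pdpn, at -0.90 ± 0.32). Without replicate 2 of knockout these medians were 0.04 and -0.04.

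**Figure D4:**
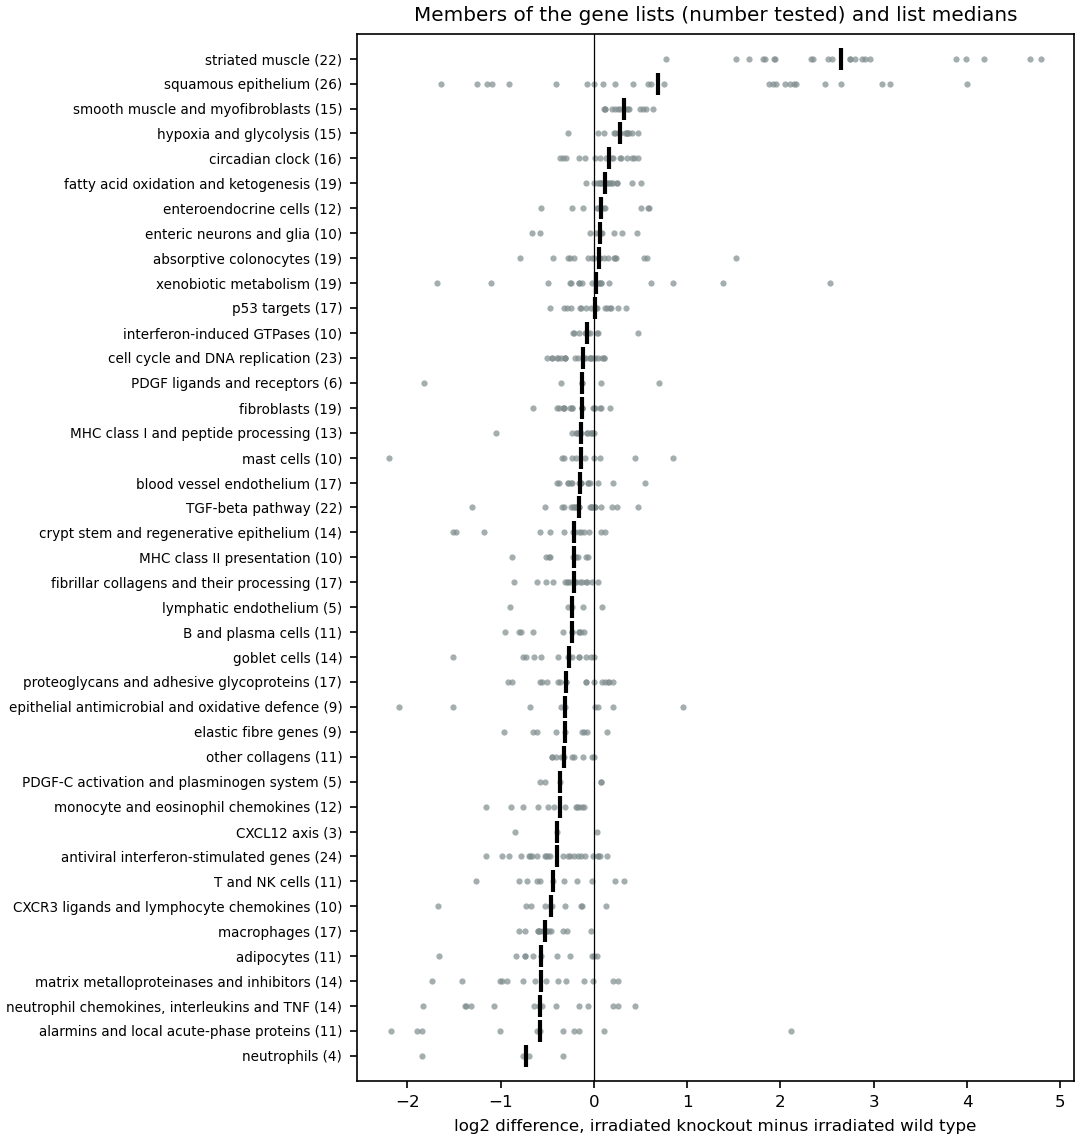
Difference between irradiated knockout and irradiated wild type (x axis, log2) for each tested member (grey points) of the gene lists, with the number tested in brackets and the list median as a black bar. Medians run from -0.73 for neutrophil markers, with 4 genes, to 2.65 for striated muscle, and 30 of these 41 medians lie below 0.

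Interferon-related genes lay slightly lower in knockout after irradiation, whereas without irradiation several differed by much more. Of 67 tested, 58 were below 0 (median -0.19), 8 were lower at an unadjusted p under 0.05 and 0 higher. Over all genes 1.84% were lower at that p. With the sex pattern as a covariate the median was -0.30 with 60 below 0, and the count of 8 was 2. It was 3 without replicate 3 of wild type, 4 without its replicate 2 or replicate 2 of knockout, and 14 without replicate 1 of wild type. Antiviral interferon-stimulated genes had a median of -0.40 (20 of 24 below 0, 4 lower, groups without overlap for 7 lower, against 4.04% of all genes; -0.56 to -0.27 without 1 array). The list mean was 9.92, 9.88 and 9.87 in knockout and 10.02, 10.43 and 10.44 in wild type, so replicate 1 of wild type was close to knockout. Bst2, tetherin, which holds viruses at the cell surface, read 8.50, 8.01 and 8.85 against 8.97, 9.38 and 9.35 (-0.78 ± 0.26). The RNA sensors Ddx58 (RIG-I) and Dhx58 had -0.62 ± 0.25 and -0.69 ± 0.26, and Xaf1 -1.16 ± 0.43. The second probe sets of Ddx58 and Dhx58 had -0.009 ± 0.33 and 0.06 ± 0.31, both with overlapping groups. The mean with the second probe set of Xaf1 gave 0.10. Of the 24, 1 was lower at that p without replicate 3 of wild type and 6 without its replicate 1.

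MHC class II presentation genes had a median of -0.21 (10 of 10 below 0, 0 at an unadjusted p under 0.05), against -2.55 without irradiation. H2-Eb1, a class II beta chain, read 13.66, 13.81 and 13.83 against 13.71, 14.25 and 13.90 (-0.19 ± 0.15, 95% interval -0.53 to 0.15). Without irradiation it differed by -2.78 ± 0.18, and the 2 differences were apart by 2.59 (limma interaction, adjusted p = 0.0041). Ciita, the master regulator of class II genes, had -0.48 ± 0.30 after and -3.45 ± 0.37 without irradiation (interaction adjusted p = 0.0503). The interaction passed the threshold for 5 of the 10 class II genes, 1 of 13 class I and peptide processing genes and 4 of 10 interferon-induced GTPases. It passed for 2 of 24 antiviral genes and 1 of 10 CXCR3 ligands and lymphocyte chemokines, against 0.207% of all genes. As given above, the count over all genes moved with each unirradiated knockout array. With the sex covariate it was 4, so at most 4 of these members can have passed in that fit. Class I and processing genes had a median of -0.14 (12 of 13 below 0, 1 lower, H2-M3) and the GTPases -0.07 (7 of 10 below 0, 0 at that p). Without 1 array these medians ran from -0.22 to -0.02 (nearest to 0 without replicate 1 of knockout) and from -0.27 to 0.08 (above 0 without replicate 2 of wild type). Among the GTPases, Gbp2 read 12.71, 13.75 and 13.12 against 13.19, 12.56 and 12.41 (0.47 ± 0.36) and Gbp7 had -0.23 ± 0.20.

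Chemokines and inflammatory proteins were mostly lower in knockout. The CXCR3 ligands and lymphocyte chemokines had a median of -0.46 (9 of 10 below 0, 3 lower, against 1.84% of all genes); they are counted among the 67 interferon-related genes above. The count of 3 was 1 without replicate 2 of knockout or replicate 2 or 3 of wild type and 5 without its replicate 1. Cxcl9, an interferon-gamma-induced attractant of T cells, read 9.86, 9.51 and 10.09 against 10.43, 10.81 and 10.43 (-0.73 ± 0.25). Its difference without irradiation was -4.14 ± 0.30 (limma interaction, adjusted p = 0.0115). The second Cxcl9 probe set had -0.26 ± 0.45 after irradiation, with overlapping groups. Cxcl16 had -0.53 ± 0.18 and Ccl5 -1.68 ± 0.65, the latter with replicate 1 of wild type, at 8.67, inside the knockout range of 8.14 to 8.98. Neutrophil chemokines, interleukins and TNF had -0.57 (11 of 14 below 0, 1 lower). Cxcl2, which attracts neutrophils, read 8.18, 8.09 and 8.19 against 8.80, 9.46 and 10.36 (-1.39 ± 0.36). Without replicate 1 of wild type 4 of the 14 were lower and the median was -1.09, and without its replicate 2 it was -0.33. Monocyte and eosinophil chemokines had -0.37 (12 of 12 below 0, 1 lower, the macrophage chemokine Ccl9 at -0.89 ± 0.32); 5 were lower without replicate 1 of knockout, and the median was -0.20 with 0 lower without replicate 3 of wild type. Alarmins and local acute-phase proteins had -0.58 (9 of 11 below 0, 3 lower). Besides Saa3 these were S100a9 of neutrophils and inflamed epithelium (-1.84 ± 0.76) and haptoglobin, Hp (-1.90 ± 0.83), both with overlapping groups, and 1 was lower without replicate 3 of knockout or replicate 2 of wild type. Epithelial defence genes had -0.31 (5 of 9 below 0, 1 higher, Pla2g2a; median -0.05 without replicate 1 of knockout).

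Leukocyte markers lay on the same side. Macrophage markers had a median of -0.53, with 17 of 17 below 0. At an unadjusted p under 0.05, 2 were lower (against 1.84% of all genes), and 7 were without overlap (against 4.04%). The list mean was 10.50, 9.89 and 10.52 in knockout and 10.71, 10.88 and 10.86 in wild type. Replicate 2 of knockout was lowest, and the groups did not overlap. The IgG receptor gene Fcgr3 read 10.93, 10.09 and 10.83 against 11.31, 11.21 and 11.12 (-0.59 ± 0.21). Csf1r, the receptor that macrophages need to survive, read 12.07, 11.60 and 12.23 against 12.44, 12.57 and 12.55 (-0.55 ± 0.23). Without 1 irradiated array at a time the median ran from -0.68 to -0.30. The count of 2 was 1 without replicate 2 or 3 of wild type, 3 without its replicate 1, and 5 and 6 without replicates 1 and 3 of knockout, and 0 were once the sex pattern entered as a covariate (median -0.32). Neutrophil markers had -0.73 (4 of 4 below 0, 1 lower, S100a9) and T and NK cell markers -0.44 (9 of 11 below 0, 1 lower). The latter was Il7r, the interleukin 7 receptor, at 8.55, 7.91 and 9.12 against 8.99, 10.42 and 9.95. Leaving out replicate 2 of wild type took the neutrophil median to -0.27, and leaving out replicate 2 of knockout took that of T and NK cells to -0.09; 0 members of either list were lower without either of these arrays. B and plasma cell markers had -0.24 (11 of 11 below 0, 0 lower; -0.78 without replicate 1 of wild type, -0.11 without replicate 2 of knockout), with Cd22 at -0.96 ± 0.59 and Ighm, immunoglobulin mu, at -0.81 ± 0.69. Ighm read 11.52, 12.37 and 14.39 in knockout and 12.66, 13.28 and 14.75 in wild type, a wider range within than between groups, and of 8 other Ighm probe sets 6 differed in the same direction and 2 in the other, by 0.17 and 0.59. Mast cell markers had -0.14 (7 of 10 below 0, 2 lower), namely Kit (-0.34 ± 0.14) and the histamine-forming Hdc (-2.19 ± 0.92, dim in knockout at 6.22, 4.09 and 6.80). Hdc passed the filter only through the 3 irradiated wild-type arrays, at 7.46, 8.45 and 7.78. The filter thus favoured its call, and its fold rests on knockout values below the array median. The mast cell median was above 0 without replicate 2 or 3 of knockout or replicate 1 of wild type (0.07, 0.04 and 0.09). Under the sex covariate it was 0.55.

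The intestinal epithelium showed no common direction. Over all genes, 2.14% were higher and 1.84% lower at an unadjusted p under 0.05, the threshold of the counts below. Absorptive colonocyte markers had a median of 0.05 (12 of 19 above 0, 1 higher, Car1; -0.20 with 4 lower without replicate 2 of knockout, 0.21 without its replicate 1). Goblet cell markers had -0.27 (13 of 14 below 0, 2 lower). Clca1, a secreted mucus protein, read 13.15, 14.03 and 12.97 against 13.75, 13.92 and 14.67 (-0.73 ± 0.31), and Fer1l6 had -0.76 ± 0.31. Replicate 3 of wild type had the highest goblet list mean, 13.00 against 11.87 to 12.60 elsewhere. Without replicate 2 of knockout the goblet median was -0.60 and 6 markers were lower, and without its replicate 1 it was -0.09 and 0 were. Enteroendocrine markers had 0.08 (9 of 12 above 0, 0 at an unadjusted p under 0.05; -0.01 without replicate 2 of knockout and 0.31 without its replicate 1), with Neurod1 at 0.59 ± 0.28 and Pcsk1 at 0.57 ± 0.28, both dim. Crypt stem and regenerative genes had -0.21 (12 of 14 below 0, 2 lower; -0.33 with 4 lower without replicate 1 of wild type). Clu, clusterin, a marker of regenerating crypts, read 11.30, 10.52 and 11.68 against 12.90, 11.51 and 13.61 (-1.51 ± 0.48). Plet1, a surface protein of progenitors, read 12.40, 12.19 and 11.67 against 12.47, 13.54 and 13.78 (-1.18 ± 0.49), and without irradiation it had differed by -7.24 ± 0.60 (interaction adjusted p = 0.0169).

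Tissues next to the mucosa varied widely between the irradiated arrays. Striated muscle, which forms the outer anal sphincter, had a list median of 2.65, with 22 of 22 above 0. At an unadjusted p under 0.05, 4 were higher (against 2.14% of all genes). Groups did not overlap for 0 of them (against 4.38% higher over all genes). The list mean was 11.52, 10.62 and 12.38 in knockout and 11.64, 9.74 and 4.98 in wild type, so replicate 3 of wild type lay far below the other 5 arrays. Without that array the median was 0.68 and 2 were higher; without replicate 1 of wild type it was 4.09 and 22 were higher. Myh1, a fast myosin, read 11.80, 12.54 and 14.23 against 12.23, 9.90 and 2.04, and Ckm, muscle creatine kinase, 12.45, 11.57 and 13.18 against 11.63, 10.87 and 7.65. Pvalb and Actn3 had 2.75 ± 0.93 and 3.88 ± 1.38. Squamous epithelium, which lines the anal canal, had 0.68 (18 of 26 above 0, 1 higher), with a mean of 12.24, 10.67 and 11.64 against 11.66, 11.39 and 8.54. The member was Krt4, a keratin of moist squamous linings (1.87 ± 0.58), and the median was 0.13 without replicate 3 of wild type. Adipocyte markers had -0.56 (10 of 11 below 0, 0 at that p), with adiponectin, Adipoq, at 11.51, 8.01 and 10.74 against 12.14, 11.40 and 11.72. Replicate 2 of knockout had the least fat signal, and without it the median was 0.07. The lipase gene Lpl had -0.65 ± 0.46. Enteric neuron and glia markers had 0.07 (7 of 10 above 0, 0 at that p, -0.10 to 0.29 without 1 array). Nos1 had 0.47 ± 0.32 and Tubb3 -0.67 ± 0.50. Without irradiation the striated muscle list mean was 9.02 and 8.51 in knockout and 4.55 and 4.85 in wild type. The list median of the unirradiated differences was 4.11 for striated muscle and -0.11 for squamous epithelium. It was 0.56 for adipocytes and 0.35 for enteric neurons and glia.

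**Figure D5:**
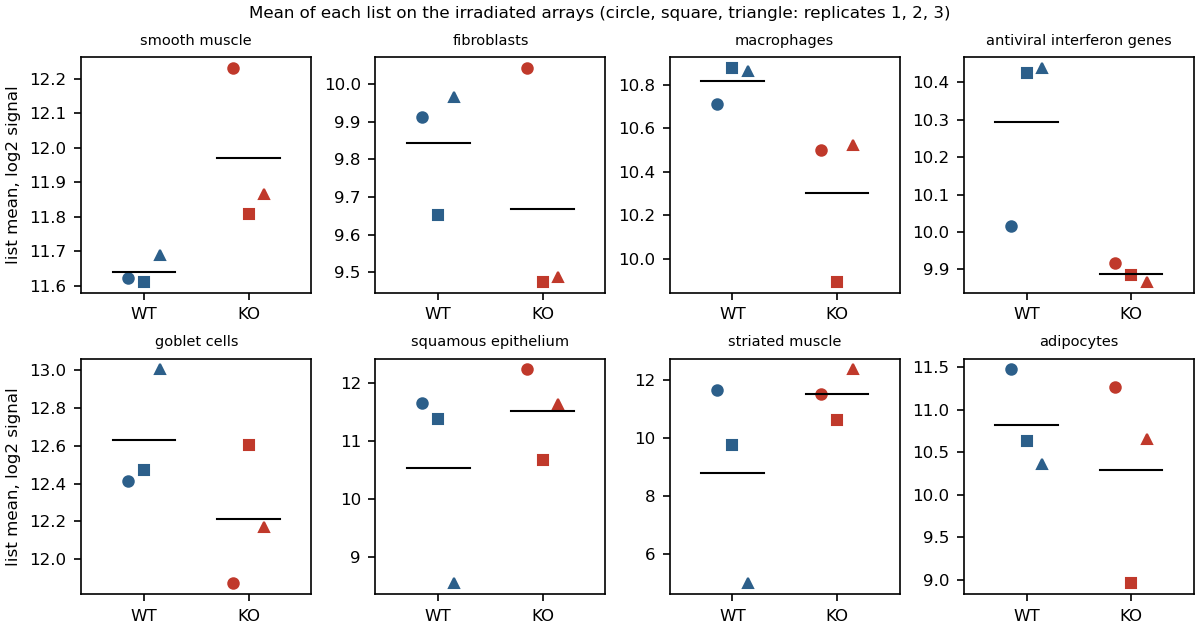
Mean log2 signal (y axis, a scale of its own in each panel) of 8 gene lists on the irradiated wild-type (WT, blue) and knockout (KO, red) arrays, with replicates 1, 2 and 3 as circle, square and triangle and the group mean as a line. Smooth muscle and macrophage means do not overlap between genotypes, and the striated muscle mean is 4.98 in replicate 3 of wild type against 9.74 to 12.38 on the other 5 arrays.

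The metabolic lists had small medians, while single members such as Cyp2c55 differed by more. Of 53 metabolic genes tested, 6 were higher at an unadjusted p under 0.05 (against 2.14% of all genes) and 0 lower (against 1.84%). Groups did not overlap for 6 higher (against 4.38%) and 0 lower (against 4.04%). Without replicate 2 of knockout 4 were higher and 4 lower at that p, and without replicate 2 of wild type 3 and 3. Fatty acid oxidation and ketogenesis genes had a median of 0.12 (18 of 19 above 0, 1 higher, the ketone body enzyme Bdh1 at 0.41 ± 0.14), and 0.05 without replicate 3 of wild type. The second Bdh1 probe set had 0.13 ± 0.29, with overlapping groups. Xenobiotic metabolism had 0.02 (10 of 19 above 0, 3 higher), but without replicate 2 of knockout -0.22 with 4 lower, and without replicate 2 of wild type -0.09 with 3 lower. Besides Cyp2c55 these were Cyp2c65, another cytochrome P450, at 7.59, 7.22 and 8.12 against 6.84, 5.83 and 6.11 (1.39 ± 0.39), and the retinal dehydrogenase Aldh1a1. Aldh1a1 read 10.79, 11.06 and 10.83 against 9.70, 10.22 and 10.20, without overlap (0.85 ± 0.22), and it differed by 0.96 ± 0.27 without irradiation. Hypoxia and glycolysis genes had 0.28 (14 of 15 above 0, 2 higher), Aldoa at 0.47 ± 0.19 and Vegfa at 0.41 ± 0.17; the median was 0.15 without replicate 3 of wild type and 0.13 without replicate 1 of knockout. Cell cycle and DNA replication genes had -0.12 (18 of 23 below 0, 1 lower), and the mitotic activator Cdc20 read 10.57, 10.63 and 10.55 against 11.02, 10.96 and 10.96 (-0.40 ± 0.16). The p53 targets had 0.02 and clock genes 0.16, both with 0 at an unadjusted p under 0.05; Btg2 had 0.26 ± 0.14, Phlda3 -0.47 ± 0.30, Hlf 0.43 ± 0.23 and Nfil3 -0.37 ± 0.26. Second probe sets of Btg2 and Hlf had -0.04 and -0.001. Without 1 array the p53 median ran from -0.11 to 0.16 and the clock median from 0.02 to 0.17. Of the sex-linked list, Xist, Eif2s3y and Uty had an unadjusted p under 0.05, at -5.01, 6.71 and 1.79, which follows the array pattern given above. Of the 10 measured named genes nearest to Pdgfc on its chromosome, 5 on each side, 0 had one, with differences from -1.11 for Lrat to 0.54 for Gucy1a1. Lrat passed the filter only through replicates 1 and 3 of irradiated wild type, at 7.68 and 7.94. Its knockout values of 6.57, 5.91 and 5.12 lay below the array medians, so the filter favoured its fall. The count of neighbours under that p was above 0 in 9 of the 22 other settings. Among these it was 2 without replicate 2 of knockout or with array weights, and 1 without replicate 1 or 2 of wild type.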

How the data were processed

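Total RNA of 10 distal colorectal samples was measured on Affymetrix arrays of 45101 probe sets. Signals come from MAS5, per the submitters' processing notes; its version was not given in the sources used here. What the authors deposited is on a log2 scale, judged from the values: 2 raised to them has a mean of 500 on every array after trimming 2% at each tail. They were used as deposited. Of the probe sets, 34945 had 1 gene in the platform annotation, 932 several, 9160 none, and 64 were controls; symbols were updated by gene ID for 34741 (GRCm38.p6 table).

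Limma 3.58.1 (R 4.3.3) fitted the 4 group means jointly (10 arrays, 6 residual degrees of freedom) with a variance prior following the mean, two-sided, adjusted over the 12568 genes. The labels call replicates biological without naming animals, so p-values measure only the spread between these samples.

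Named are the PDGF list, the 12 genes per direction past the threshold or, as here, with the smallest unadjusted p and no overlap (sex-linked and unofficial symbols left out), up to 4 members per list under an unadjusted p of 0.05 or else the 2 with the smallest, and neighbours of Pdgfc. Cxcr4 and Ackr3, outside the rule, were named after their values were seen. The members, the 42 lists and the alternatives were chosen with earlier results of these data known. Alternatives were quantile normalization, pseudocounts of 16 and 64, dropping the filter or taking it on the mean, a prior without trend, weighted arrays, other uses of probe sets, the 6 irradiated arrays alone, the replicate number as a block, the sex pattern as a covariate, and leaving out each array. The number of arrays limits the precision.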

Additional observations from a re-analysis of the deposited data

Results flagged for a closer look

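For 4 genes named in the report the genotype difference after irradiation and without it differed by the limma interaction test (adjusted p under 0.05). Pla2g2a had 0.96 after and -2.66 without irradiation, apart by 3.62 (adjusted p = 0.0041). H2-Eb1 had -0.19 and -2.78, apart by 2.59 (adjusted p = 0.0041). Cxcl9 had -0.73 and -4.14, apart by 3.41 (adjusted p = 0.0115). Plet1 had -1.18 and -7.24, apart by 6.06 (adjusted p = 0.0169). The unirradiated arrays all had the male sex pattern and 4 of the 6 irradiated ones the female, and with that pattern as a covariate 4 genes in place of 26 passed the interaction test. The 4 differences kept their size in that fit, with larger standard errors: Pla2g2a 3.54 ± 0.42 (SE; 0.34 without the covariate), H2-Eb1 2.49 ± 0.29 (0.24), Cxcl9 3.44 ± 0.49 (0.39) and Plet1 6.37 ± 0.96 (0.78). Their adjusted p-values in limma were then 0.0501, 0.04995, 0.102 and 0.103, so that H2-Eb1 alone of the 4 passed, by a narrow margin.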

How the results depend on the processing

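The count of genes past the adjusted threshold after irradiation was 0 in the chosen setting and in each of the other 12 settings that kept all irradiated arrays, and 0 to 3 when 1 array was left out. Those were Xist, Eif2s3y and Uty without replicate 1 of irradiated knockout, Zfp945 without its replicate 3, Car1 and Saa3 without replicate 1 of irradiated wild type, and Ubd and Gdpd3 without its replicate 3; Zfp945 and Gdpd3 were named after their values were seen. Genes at an unadjusted p under 0.05 numbered 269 higher and 231 lower. They were 434 higher with no filter, 616 and 456 with array weights, 411 and 461 over every probe set, and 179 to 515 and 112 to 404 without 1 array. Interaction calls, 26, were 16 with a pseudocount of 64, 10 without the trend, 42 over every probe set, 4 with the sex pattern as a covariate and 14 to 35 without 1 array. Same-numbered knockout and wild-type arrays deviated from their group means with r = 0.14, -0.18 and -0.05, and pairs of unlike number reached -0.25 and 0.24. With 3 arrays a group these values cannot tell whether same-numbered arrays share more than a number. With the replicate number as a block 0 genes passed, and 192 were higher and 267 lower at the unadjusted threshold. Pdgfc ran from -1.98 to -1.53 without 1 array and from -2.10 to -1.38 elsewhere.

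Signs turned for 11 of 100 named genes. With array weights Pdgfrb had 0.11. Averaging the probe sets of a gene gave St6galnac2 0.035, Il1r1 0.092, Xaf1 0.10 and Nos1 -0.047. The sex covariate gave Pdgfa -0.023, Pdgfra 0.36, Pdgfrb 0.027, Gbp2 -0.006, Lpl 0.24, Tubb3 0.0093 and Uty -0.26. Without 1 array Pdgfa ran from -0.089 to 0.18, Pdgfra from -0.38 to 0.13 and Pdgfrb from -0.32 to 0.14. Of 42 list medians, 13 moved by more than the spread between replicates in some setting. The causes were not tested. With 3 arrays a group, of mixed sex pattern and muscle content, the 95% interval of a difference reached a median of 0.47 to either side; the signal left where a gene is dim is near the background, which the deposited values do not give.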
